A study of Mus musculus with 10 samples.

Results

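The 10 genes described here encode the enzymes that carry tryptophan through the kynurenine pathway and were all measured in mouse kidney. They are Ido2, Afmid, Kmo, Kynu, Haao, Acmsd, Qprt, Kyat1, Aadat and Kyat3. They were chosen by name, and all of their transcripts were taken from the authors' deposited table, which gave 42 of its 85107 transcripts and 10 of its 27876 named genes. Each gene stands below for its most abundant transcript unless another is named. All kidneys came from wild-type mice and were taken on day 14. A group of 5 mice drank vehicle, and a group of 5 mice drank quinolinic acid at 0.5 g/L. The sources used here do not give the age, sex and strain of the mice or the composition of the vehicle. The comparison asks whether excess quinolinic acid from outside goes with a change in the kidney's own RNA for the enzymes that make and use it.

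In the kynurenine pathway the ring of tryptophan is opened by a dioxygenase (Tdo2, Ido1 or Ido2), and Afmid releases kynurenine from the product. Kynurenine is either hydroxylated by Kmo, a flavoprotein of the outer mitochondrial membrane, or turned into kynurenic acid by the transaminases Kyat1, Aadat and Kyat3. Kynu cleaves alanine from the hydroxylated form, and Haao oxidises what is left to an unstable semialdehyde. That semialdehyde closes by itself to quinolinic acid unless Acmsd removes a carboxyl group first. Qprt is the enzyme that uses quinolinic acid, converting it to nicotinic acid mononucleotide on the way to NAD. Liver and kidney are the organs best known for holding the whole route, and in kidney it is mainly a trait of the proximal tubule.

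The data are the authors' finished comparison of vehicle and quinolinic acid, with a mean level over the 10 libraries and no value for a single mouse. Library depth is therefore unknown, and neither the level within each group nor the spread between mice could be given. Errors are approximate 95% intervals computed from the deposited log2 fold change and likelihood ratio. Which group was divided by which is not stated in the header, so each sign is printed as deposited and gives no direction relative to quinolinic acid. The tissue label was checked on marker genes. The proximal tubule genes Slc34a1, a phosphate transporter, and Slc27a2, a fatty acid transport protein, stood at 1430 and 1644 CPM (read counts scaled to library size) in the authors' deposited table. Umod, uromodulin of the thick ascending limb, stood at 1274 CPM and Slc12a1, the sodium, potassium and chloride cotransporter of that segment, at 374 CPM in the authors' deposited table.

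No enzyme gene passed the authors' likelihood-ratio test at an adjusted p under 0.05, a threshold passed by 0.0215% of all genes in the authors' deposited table. The enzymes' log2 fold changes ran from -0.23 for Acmsd to 0.69 for Kynu, with 6 positive, 4 negative and a median of 0.07. After removal of a trend of fold change with transcript length and level across all transcripts, 5 were positive and the median was 0.00. The median over the 13115 genes of at least 1 CPM was 0.08, and 71.8% of those were positive. At an unadjusted p under 0.05 there was 1 enzyme gene of 10, Kynu, against 5.12% of all genes and 4.09% of those of at least 1 CPM.

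**Figure D1:**
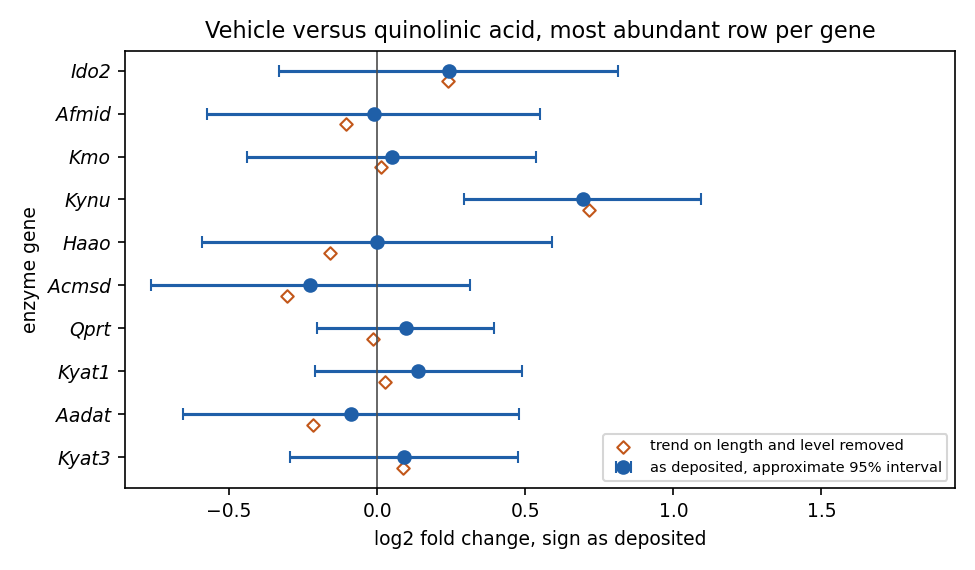
Log2 fold change of the most abundant transcript of each enzyme gene between vehicle and quinolinic acid, with the sign as deposited (circles, bars for the approximate 95% interval over 5 against 5 mice). Open diamonds give the value after removal of the trend on transcript length and level. The interval of Kynu lies above 0, from 0.29 to 1.09, and the other 9 include 0.

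The levels of the enzymes differed far more between steps than between groups. Levels of different genes are given as mean CPM per kb of transcript, over all 10 libraries. At the entry, Ido2, the lesser known of the dioxygenases, stood at 1.47 CPM per kb (approximate interval 1.21 to 1.80). Afmid, the formamidase, stood at 12.0 CPM per kb (9.85 to 14.5), which was 8.12 times the level of Ido2 (6.15 to 10.7). Exons of Gm20708, an overlapping gene on the same strand, cover 67.3% of this Afmid transcript. The level may thus include reads from Gm20708. Kmo stood at 16.4 CPM per kb (13.8 to 19.4).

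Kynu, the step after Kmo, was the lowest of the 10, at 0.954 CPM per kb (0.831 to 1.10). Kmo before it was 17.1 times higher (13.8 to 21.3), and Haao after it was 59.8 times higher (46.6 to 76.6). Haao stood at 57.0 CPM per kb (46.5 to 70.0). Kynu thus had the lowest level between a pair of higher ones, and by level per kb it ranked 11720 among 27876 genes where Haao ranked 575.

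Around quinolinic acid itself, Haao, which feeds it, was the highest. Acmsd, which draws the precursor away, stood at 12.6 CPM per kb (10.4 to 15.2), and Haao was 4.53 times higher (3.44 to 5.98). Qprt, which consumes quinolinic acid, stood at 16.2 CPM per kb (14.6 to 17.9), 1.29 times the level of Acmsd (1.04 to 1.59). Haao was 3.52 times higher than Qprt (2.80 to 4.43).

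Among the transaminases that make kynurenic acid, Aadat, the mitochondrial aminoadipate transaminase, had the highest level of the 10 enzymes, at 61.5 CPM per kb (50.5 to 74.8). Kyat1 stood at 19.3 CPM per kb (17.1 to 21.8), and Aadat was 3.18 times higher (2.52 to 4.00). Kyat3 stood at 4.96 CPM per kb (4.34 to 5.66), and Aadat was 12.4 times higher (9.78 to 15.7).

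From highest to lowest the order was Aadat, Haao, Kyat1, Kmo, Qprt, Acmsd, Afmid, Kyat3, Ido2 and Kynu. Neighbours whose ratio had an interval that included 1 were Aadat and Haao (1.08, 0.811 to 1.43), Kyat1 and Kmo (1.18, 0.960 to 1.46), Kmo and Qprt (1.01, 0.829 to 1.23), and Acmsd and Afmid (1.05, 0.804 to 1.38). Haao was 2.95 times above Kyat1 (2.32 to 3.74), Afmid 2.41 times above Kyat3 (1.91 to 3.05), Kyat3 3.37 times above Ido2 (2.65 to 4.28) and Ido2 1.54 times above Kynu (1.21 to 1.97). These intervals treat the genes as independent across mice, and they leave out how evenly reads cover a transcript. They also leave out how reads shared between transcripts of a gene were counted, which was not checked. Reads from Gm20708 are not set apart in the level, the ratios and the place of Afmid. Aadat and Haao each had 1 measured transcript, of 3 and 6 annotated, where Kyat1 had 8 and Kynu 6. The order and ratios thus hold only for the counts as deposited. The level of Kyat3 depended on the coding transcript chosen. Its coding transcripts Kyat3-201 and Kyat3-202 had 20.9 and 20.3 CPM in the authors' deposited table, but they are 4206 and 1888 bases long, so that the shorter had 10.8 CPM per kb. The order of the 10 was the same when each gene was given by its coding transcript with the highest level per kb, a choice made after seeing the data. The distances were not the same, as Kyat3 then stood at 10.8 CPM per kb, close below Afmid at 12.0. The ratios of 2.41, 3.37 and 12.4 that involve Kyat3 hold for Kyat3-201 and its length.

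**Figure D2:**
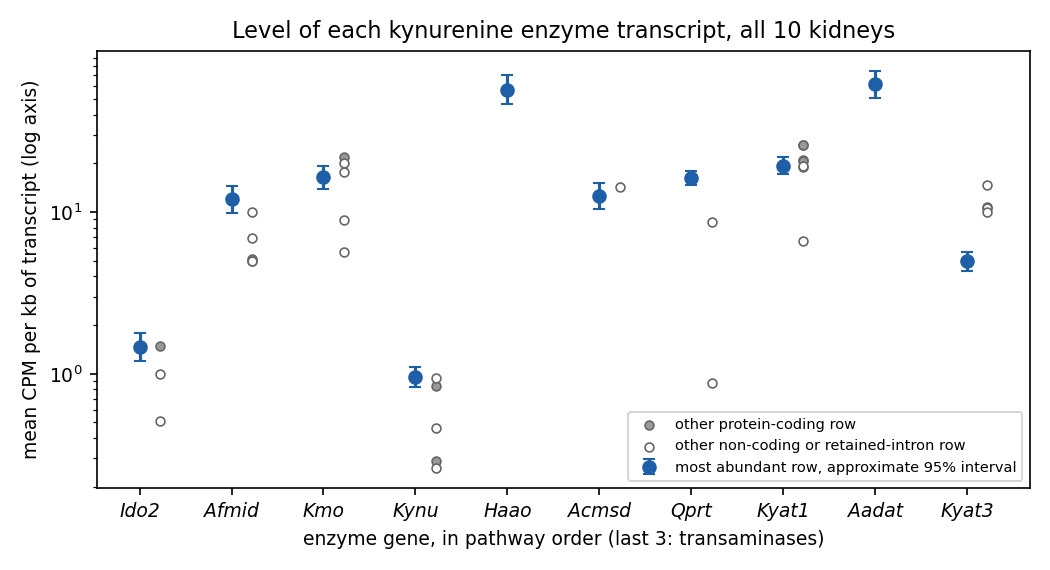
Mean CPM per kb of transcript over the 10 libraries (log axis) for each enzyme gene in pathway order, with the transaminases last. Blue points are the most abundant transcript with its approximate 95% interval, grey and open points the other transcripts of the gene. Kynu (0.954) lies far below Kmo (16.4) and Haao (57.0), and Aadat (61.5) is the highest.

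Kynu had the largest difference of the 10. Its main transcript Kynu-201 (chromosome 2, 43555329 to 43682715, plus strand, GRCm38, 14 exons) stood at 2.61 CPM, per the authors' deposited table. The difference, as log2 fold change, was 0.69 (approximate interval 0.29 to 1.09), a 1.62-fold difference, and it did not pass the authors' likelihood-ratio test (p = 0.0007, adjusted p 0.368). Among the 13115 genes of at least 1 CPM, Kynu ranked 17 by p, and 0.480% had a larger absolute log2 fold change. Once the trend with transcript length and mean level was subtracted, Kynu stood at 0.71.

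All 6 measured Kynu transcripts had a positive sign, from 0.45 to 0.76 in the authors' deposited table. Of them 5 had an unadjusted p under 0.05, against 6.08% of all transcripts and none of the other 36 enzyme transcripts, where the smallest p was 0.313. None of the 42 passed the adjusted threshold, which 0.0141% of all transcripts did. Transcripts of a gene share exons and reads, so these 6 values are not independent measurements. The coding transcripts Kynu-203 and Kynu-202 had log2 fold changes of 0.62 (1.33 CPM, p = 0.0158) and 0.57 (0.797 CPM, p = 0.0490) in the authors' deposited table. Of the non-coding ones, Kynu-206, which covers the last exons, stood at 0.58 (0.824 CPM, p = 0.0285), Kynu-204 at 0.76 (0.388 CPM, p = 0.0112) and Kynu-205 at 0.45 (0.163 CPM, p = 0.189) in the authors' deposited table.

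The 3 coding Kynu transcripts run together up to exon 10 and differ in how they end, which is shown by the coding bases on either side of each point of divergence. Bases in lower case are the last 30 shared by the transcripts compared, and capitals mark what follows in that transcript. The first pair parts after exon 10 (chr2:43631590-43631619 shared, capitals chr2:43671359-43671411 in Kynu-201 and chr2:43634952-43635018 in Kynu-202). The second pair parts after exon 13 (chr2:43679953-43679982 shared, capitals chr2:43681349-43681468 in Kynu-201 and chr2:43679983-43679991 in Kynu-203). All are on the plus strand of GRCm38 and come from the GENCODE vM21 transcripts.
Kynu-201 exon 10 to 11: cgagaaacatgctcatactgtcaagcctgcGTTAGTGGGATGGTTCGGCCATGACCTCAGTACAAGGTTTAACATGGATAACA
Kynu-202 exon 10 to its last exon: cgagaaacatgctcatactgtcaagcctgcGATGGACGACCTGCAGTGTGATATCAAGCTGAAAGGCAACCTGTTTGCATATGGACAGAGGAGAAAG
Kynu-201 exon 13 to 14: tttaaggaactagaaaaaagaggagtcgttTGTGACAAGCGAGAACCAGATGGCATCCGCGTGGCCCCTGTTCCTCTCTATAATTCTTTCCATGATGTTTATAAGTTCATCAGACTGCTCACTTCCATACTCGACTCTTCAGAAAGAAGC
Kynu-203 exon 13 read on: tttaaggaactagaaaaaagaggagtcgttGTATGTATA

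Kynu-201 has 1395 coding bases. Kynu-203 reads on from exon 13 into what is an intron of Kynu-201, adds 9 coding bases and ends with 1284. Kynu-202 leaves after exon 10 through an exon of its own with 67 coding bases and ends with 972. Per kb of transcript Kynu-203 had 0.839 and Kynu-202 0.287 CPM, against 0.954 for Kynu-201. Most of Kynu-202 lies outside the exons of Kynu-201, with 971 of its 2778 bases inside them. The deposited versions of Kynu-201 and Kynu-203 are older than those in vM21, so their ends may differ from the bases shown.

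**Figure D3:**
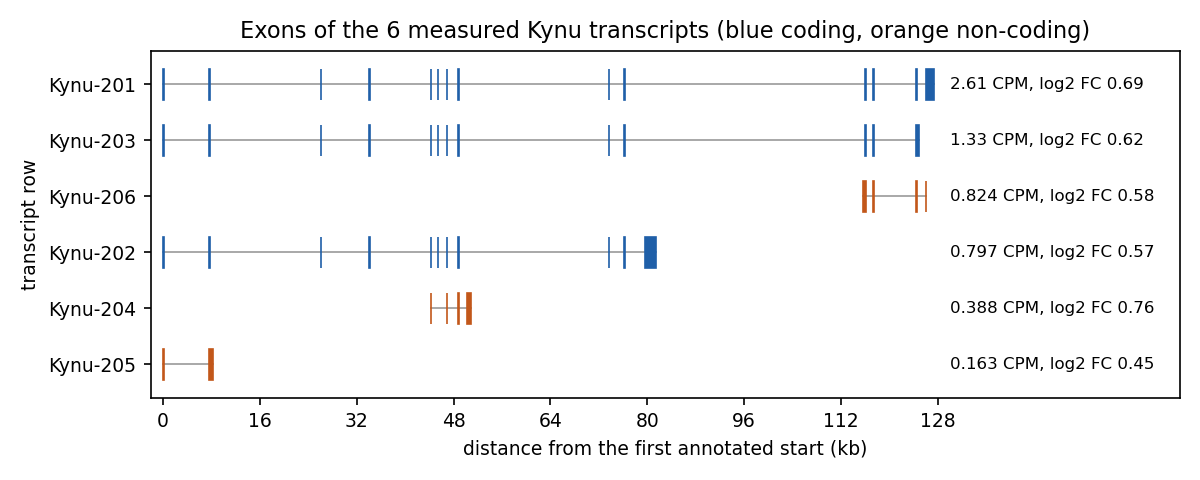
Exons (boxes) and introns (lines) of the 6 measured Kynu transcripts against distance in kb from the first annotated start, with the mean CPM and log2 fold change of each at the right. Coding transcripts are blue and non-coding ones orange. All 6 log2 fold changes are positive, from 0.45 to 0.76, wherever along the gene the transcript lies.

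Other cell types hold Kynu too, so markers were read beside it. Liver genes leaned the same way. Of 8 liver markers 7 were positive, the median log2 fold change was 1.13, and 5 were positive at an unadjusted p under 0.05, where 3.58% of all genes were. Those 5 were the albumin gene Alb (1.27), the fibrinogen gene Fgb (1.05), the apolipoprotein gene Apoa1 (1.20), the fetuin gene Ahsg (1.98) and the urea cycle gene Cps1 (2.21) in the authors' deposited table, at 0.129 to 6.53 CPM. None passed the adjusted threshold. The liver markers with the highest level per kb, Ttr (0.45) and Serpina1a (0.14), did not reach p under 0.05 in the authors' deposited table, nor did Apob (-0.16 at 60.6 CPM), the negative marker, named after its value was seen. Haao and Afmid, which liver also makes, had log2 fold changes of 0.00 and -0.01, and of -0.16 and -0.10 after subtraction of the trend. They stood at 78.8 and 27.8 CPM, far above the 5 liver markers named first. Their values therefore cannot show whether a small amount of liver RNA was present. Of 8 macrophage markers 5 were positive and 3 negative, with a median of 0.02 and none at p under 0.05. Lyz2 stood at -0.08 and C1qa at 0.16 in the authors' deposited table. Of the macrophage markers 2 were positive after subtraction of the trend, with a median of -0.01. Of 8 proximal tubule markers 6 were positive, with a median of 0.11 and none at p under 0.05, and Slc34a1 and Slc27a2 stood at 0.18 and 0.12 in the authors' deposited table. None of these markers is listed at 0, and their summed level in each group could not be given. Their part in the Kynu value was not tested. In whole kidney, fewer cells of a type and less RNA per cell cannot be told apart.

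The remaining enzymes of the main route had intervals that included 0. Ido2 (chromosome 8, 24531892 to 24554597) stood at a log2 fold change of 0.24 (-0.33 to 0.81) in the authors' deposited table. That value belongs to Ido2-204, annotated without a coding region, and the coding Ido2-201 had 0.21 at 3.63 CPM in the authors' deposited table. Afmid (chromosome 11) had -0.01 (-0.57 to 0.55) at 27.8 CPM, and Kmo (chromosome 1) had 0.05 (-0.44 to 0.54) with 60.1 CPM in the authors' deposited table. In the authors' deposited table Haao (chromosome 17) had 0.00 (-0.59 to 0.59) with 78.8 CPM. Its interval and that of Afmid each rest on a ratio of a pair of values close to 0 and are less certain than the others.

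Acmsd (chromosome 1, 127729413 to 127767978 in GRCm38) had the lowest log2 fold change, -0.23 (-0.76 to 0.31) with 34.2 CPM, in the authors' deposited table. Its second transcript, Acmsd-202, had -0.20. Qprt (chromosome 7) had 0.10 (-0.20 to 0.39) at 33.2 CPM, with adjusted p 0.923 by the authors' likelihood-ratio test. Its sign turned to -0.01 with the length and level trend removed. Its interval was the narrowest of the 10, so differences of more than about 0.39 on the positive and 0.20 on the negative side lie outside it.

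The transaminases stood at 0.14 (-0.21 to 0.49) for Kyat1, -0.09 (-0.65 to 0.48) for Aadat and 0.09 (-0.29 to 0.47) for Kyat3 in the authors' deposited table. After subtraction of the trend they were 0.02, -0.22 and 0.09.

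The transcripts of a gene were also set side by side. For Kyat1 (chromosome 2, minus strand) 7 of 8 transcripts had between 35.4 and 39.2 CPM and log2 fold changes of 0.14 to 0.15 in the authors' deposited table. Kyat1-203 and Kyat1-202 each have 11 exons where Kyat1-206 has 14, but 100% of their bases lie in exons of Kyat1-206. Near-equal values of transcripts that share exons and reads are not independent measurements. The 8th, Kyat1-208, is non-coding, has 47.6% of its bases in exons of Kyat1-206 and stood at -0.15 and 5.08 CPM in the authors' deposited table. Kyat3 was alike, with 0.08 to 0.09 for 3 transcripts at 19.1 to 20.9 CPM, while its short Kyat3-203 and Kyat3-205 had 0.18 and 0.05 in the authors' deposited table. Kyat3-202 stood at -0.01 and Kyat3-204 at -0.02 after subtraction of the trend.

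Kmo had the widest set of forms beside coding ones. The coding Kmo-202 and Kmo-201 both stood at 0.05, with 60.1 and 59.0 CPM, in the authors' deposited table. Kmo-201 stood at -0.04 after subtraction of the trend. The other 4 were negative in the authors' deposited table. Kmo-204, annotated as a target of nonsense-mediated decay, had -0.05, the retained-intron Kmo-205 had -0.15, and the short Kmo-203 and Kmo-206 had -0.22 and -0.25. Kmo-201 holds an exon of 102 bases that Kmo-202 lacks, shown here in capitals after the last 30 bases of the exon before it (chr1:175656774-175656803 and chr1:175658321-175658422, plus strand, GRCm38, GENCODE vM21).
Kmo-201 alternative exon: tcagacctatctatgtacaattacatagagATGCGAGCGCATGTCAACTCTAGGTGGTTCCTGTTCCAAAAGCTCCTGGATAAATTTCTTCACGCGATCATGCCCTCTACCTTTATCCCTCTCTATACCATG
Kmo-201 and Kmo-202 share 2409 exonic bases, and the nearly equal values do not give the share of Kmo RNA with this exon.

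The transcripts of Afmid were all negative. The coding Afmid-201 stood at -0.01, and Afmid-205 and the 4 retained-intron transcripts stood between -0.16 and -0.17, at 2.37 to 8.09 CPM, in the authors' deposited table. Exons of Gm20708, an overlapping gene on the same strand, cover 1566 bases (67.3%) of Afmid-201, and reads from both cannot be told apart there. Gm20708 itself stood at 0.02 (24.0 CPM) in the authors' deposited table. On the opposite strand Tk1 overlaps Afmid-201 by 83 bases, 2900009J06Rik overlaps Acmsd-201 by 94 and Gm15540 overlaps Kyat3-201 by 264, and the sources used here do not say whether reads were counted by strand. Between the most abundant coding transcripts of the members, and between them and that of Ido1, the longest identical stretch was 15 bases. Their further coding transcripts and the reverse strand were not compared.

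Qprt-202 and Qprt-203, short non-coding transcripts, had -0.02 (4.23 CPM) and -0.20 (0.415 CPM) in the authors' deposited table, against 0.10 for the coding one. In 6 of the 8 genes with more than 1 transcript, the least abundant transcript had a lower log2 fold change than the most abundant. The exceptions were Acmsd and Kyat3. Across all 9393 such genes with at least 1 CPM in the most abundant transcript, 77.8% showed that order, so in this share the enzymes are close to the background. The median difference, least minus most abundant, was -0.26 over the 8 enzyme genes and -0.13 over the 9393.

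**Figure D4:**
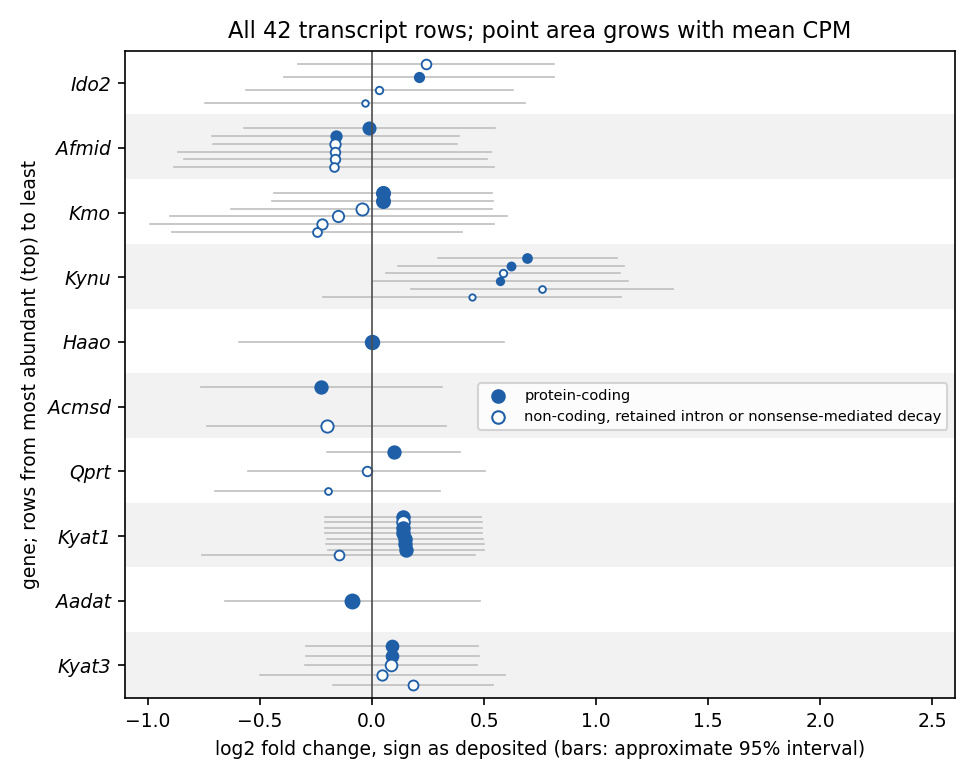
Log2 fold change (sign as deposited) of all 42 measured transcripts of the 10 genes, from the most abundant at the top of each band to the least. Filled points are protein-coding, open points are not, point area grows with mean CPM, and bars are approximate 95% intervals. The Kynu points run from 0.45 to 0.76 and the Kmo points from 0.05 down to -0.25, ranges of 0.31 and 0.30.

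The comparison was less precise for most of these enzymes than for other genes of like level. The approximate standard error (SE) of the log2 fold change was 0.30 for Haao, 0.29 for Aadat, Afmid and Ido2, 0.27 for Acmsd and 0.25 for Kmo. For Haao and Afmid it is a ratio of values close to 0 and less certain. For genes within 2-fold of the level of each of these, the median SE lay between 0.12 and 0.15. In 7 of the 10, the 6 above and Kyat3 (0.20), the SE was above the 90th percentile of genes of like level. Qprt had the smallest SE (0.15, percentile 80.1), and Kynu (0.20, percentile 67.3) and Kyat1 (0.18, percentile 88.7) also stayed below that mark. The median of the same percentile was 87.5 over the 8 proximal tubule markers, 61.4 over 6 markers of other nephron segments, 93.2 over the macrophage markers and 96.2 over the liver markers. As the SE comes from the deposited statistics, it cannot show which mice differed.

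**Figure D5:**
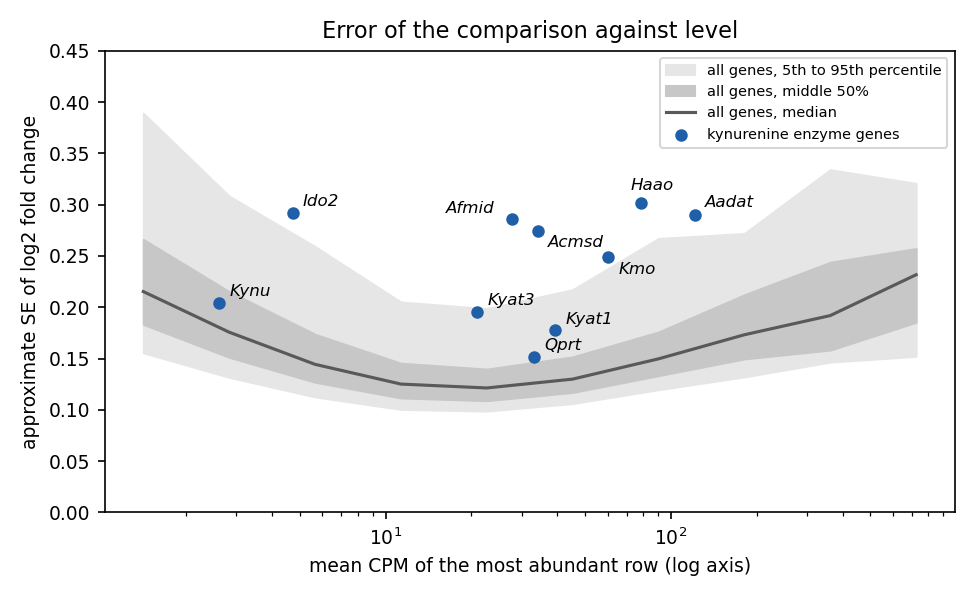
Approximate SE of the log2 fold change against mean CPM (log axis) for the 10 enzyme genes, over the 5th to 95th percentile (light grey), the middle 50% (dark grey) and the median (line) of all genes. Haao, Aadat, Afmid, Acmsd, Kmo and Ido2 have an SE of 0.25 to 0.30, at or above the upper edge of the light band or close to it.

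None of the genes around the route passed the test either. Of 32 further genes of tryptophan and kynurenine handling, chosen by name, all were measured, 25 were positive and 7 negative, and the median log2 fold change was 0.13. For this count and those of the single lists below, the background was 57.9% positive over all genes. Among genes of at least 1 CPM it was 71.8%, with a median of 0.08. After subtraction of the trend 23 were positive, with a median of 0.07. The adjusted threshold was passed by 0 of them and by 0.0215% of all genes. At an unadjusted p under 0.05 there were 2, both positive, where 3.58% of all genes were. They were Tdo2, the dioxygenase best known from liver (1.98 at 0.0930 CPM, p = 0.0149), and Slc3a2, the heavy chain partner of the transporters of large neutral amino acids (0.28 at 54.4 CPM, p = 0.0305), in the authors' deposited table. After subtraction of the trend Slc3a2 stood at 0.20, and its unadjusted p no longer lay under 0.05.

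The other dioxygenase, Ido1, had 0.0341 CPM per kb and Tdo2 0.0271, both far below Ido2 at 1.47. Got2, the mitochondrial aspartate transaminase that can also act on kynurenine, had a log2 fold change of 0.16 in the authors' deposited table. Of the 6 genes of the glutarate branch, where carbon goes after Acmsd, 5 were positive, with a median of 0.13, and Hadh, an enzyme of fatty acid oxidation shared with it, had the highest level per kb and stood at 0.16 in the authors' deposited table. Of the 4 genes that carry the Qprt product to NAD, 3 were positive, with a median of 0.13, and NAD synthetase, Nadsyn1, stood at 0.21 in the authors' deposited table. All 6 genes of tryptophan and kynurenine uptake were positive, with a median of 0.17, and Cltrn, collectrin, which brings amino acid transporters to the brush border, stood at 0.13 in the authors' deposited table. Cltrn stood at -0.03 after subtraction of the trend, and 5 of the 6 were then positive.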

How the data were processed

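RNA was measured in whole kidneys of 5 vehicle and 5 quinolinic acid mice, grouped by their labels. The submitters' processing notes list FastQC 0.11.2, STAR 2.5.3a, featureCounts, Subread 1.4.6 and edgeR, on build mm10. The sources used here do not give the depths, the filters, the strand setting or the release of the annotation. Per the file headers, the authors deposited for each transcript a mean log2 CPM, a log2 fold change, a likelihood-ratio statistic (a score on 1 degree of freedom), a p-value and a p-value adjusted over all transcripts. Recomputed p and adjusted p differed from the deposited ones by rounding alone.

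Transcript identifiers, stripped of their version, were looked up in GENCODE vM21, which is on GRCm38 (mm10). There 98.0% were found, and 42 of the 52 annotated transcripts of the 10 genes were in the table, 21 with the same version. CPM was divided by vM21 transcript length in kb. The SE of a log2 fold change was taken as its absolute value over the root of the likelihood-ratio statistic, and that of a level as 0.5 times as large. The trend on log2 length and mean level was removed by loess (span 0.5, R 4.3.3). Other steps used Python 3.11.15, pandas 2.3.3 and scipy 1.17.1, and the code was tested on simulated data.

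The members and lists were chosen with earlier results of these data known. All members were named, and of the other lists the genes at an unadjusted p under 0.05 and the 1 (markers: 2) with the highest level per kb. Gpr35, Apob, Tph2 and further transcripts and overlapping genes were named after their values were seen.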

Additional observations from a re-analysis of the deposited data

How the results depend on the processing

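The count of enzyme genes that passed was 0 under each of the 5 alternatives run, and so was that of the 32 further genes. The alternatives were a threshold of 0.1, adjustment over 1 transcript per gene, transcripts of at least 1 CPM only, the most abundant coding transcript, and removal of the trend on length and level. The adjusted p of Kynu ran from 0.330 to 0.597 over them. With the trend removed, Qprt changed sign, to -0.013, among the most abundant transcripts of the 10 enzymes. Of all 42 enzyme transcripts 5 changed sign, and so did 2 of the 32 further genes, Cltrn and Rfk. These shifts follow from subtracting that trend. Without division by length 6 of the 10 enzymes kept their place in the order of levels. No paired analysis was possible because the table holds no values of single libraries, so a replicate block and leaving out each replicate were not run. The depth behind each value is unknown.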

Other observations

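Routes and supplies beside the enzymes held no gene that passed the test either. Of 7 genes that take tryptophan or its amines elsewhere, 5 had a positive sign, the median log2 fold change was 0.15, and none had an unadjusted p under 0.05 in the authors' likelihood-ratio test. Their log2 fold changes ran from -0.15 to 1.35, the latter for the tryptophan hydroxylase gene Tph2 at 0.0236 CPM, named after its value was seen, in the authors' deposited table. The highest level among them belonged to Inmt, which methylates indole amines, at 424 CPM per kb and a log2 fold change of 0.21 (approximate interval -0.53 to 0.95) in the authors' deposited table. The 4 genes that supply the cofactors pyridoxal phosphate and FAD, on which Kynu, the transaminases and Kmo depend, were all positive, with a median of 0.07. Riboflavin kinase, Rfk, had the highest level of these and stood at 0.05 in the authors' deposited table. Rfk stood at -0.05 after subtraction of the trend, and 3 of the 4 were then positive. The 2 receptors of kynurenine metabolites listed here were both negative, the aryl hydrocarbon receptor Ahr with -0.05 and Gpr35 with -0.10 in the authors' deposited table. Neither had a p under 0.05, and other receptors of these metabolites were not looked at. Of 6 markers of other nephron segments 4 were positive, with a median of 0.11 and none at p under 0.05. After its subtraction 3 of these markers were positive. Umod and Slc12a1 stood at -0.01 and -0.11 in the authors' deposited table.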
